A study of Mus musculus with 4 samples.

Results

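The genes described here encode the proteins that act just below activating receptors in lymphocytes, 10 in all of 21025 genes in the tables: the Src family kinases Lck and Fyn, the Syk family kinases Zap70 and Syk, the scaffolds Lat, Lat2 and Lcp2, the exchange factor Vav1, and the phospholipases Plcg1 and Plcg2. They were chosen as a named list of gene symbols, and each had 1 row in every library. PolyA RNA was sequenced in 4 libraries of liver natural killer (NK) cells, obtained by flow sorting from C57BL/6 mice. TRAIL+ cells (2 libraries) were sorted for surface TRAIL, a death ligand, and for the absence of the integrin CD49b, and CD49b+ cells (2 libraries) for CD49b and the absence of TRAIL. Both gates also took only cells with NK1.1 and NKp46 and without TCR beta. The labels used here state neither the age of the mice nor whether libraries came from separate or pooled mice, so a p-value here reflects only how far the sequenced libraries differ, a spread that may be technical. Ncr1, the gene of NKp46, stood at 978 and 1106 RPKM in TRAIL+ libraries and 1011 and 1114 RPKM in CD49b+ libraries (RPKM are reads per kilobase of gene, scaled to the library total).

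When an activating receptor of an NK cell is engaged, a Src family kinase phosphorylates tyrosines in the receptor or in its ITAM-bearing adaptor chain. A Syk family kinase docks on the phosphorylated ITAM and in turn phosphorylates scaffolds such as LAT and SLP-76, which hold VAV1 and phospholipase C gamma at the membrane. The phospholipase releases the messengers that raise calcium and start the diacylglycerol branch, steps that lead to granule release and cytokine production. T cells rely mainly on Zap70, B cells and myeloid cells on Syk, and NK cells use both.

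TRAIL+ cells had more Plcg1, Zap70 and Lcp2 transcript than CD49b+ cells and less Fyn, whereas Lck, Lat2, Vav1 and Plcg2 had overlapping values in both subsets. Of the 10 genes, all passed the minimum level, 3 rose and 1 fell in TRAIL+ cells, and 6 did not pass the test (limma on log2(RPKM + 1), Benjamini-Hochberg adjusted p threshold 0.05, n = 2 per group). Over the 10047 genes tested, 4.76% rose and 3.86% fell, 8.62% in either direction. Groups did not overlap for 6 of the 10 genes, against 46.8% of all tested genes, so that count is close to the background. The median log2 fold change of the 10 was 0.13, and 0.0050 over all tested genes. The summed level of the 10 genes was similar, at 1101 and 1098 RPKM in TRAIL+ libraries and 1064 and 1028 RPKM in CD49b+ libraries. A fit with 1 library left out estimates a gene's own spread from the 2 libraries of the other subset alone. Passing or failing then also depends on that spread, so for single genes only log2 fold changes are given. With n = 2 per group each call is tentative. In this bulk RNA, fewer cells that express a gene and less RNA per cell cannot be told apart.

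**Figure D1:**
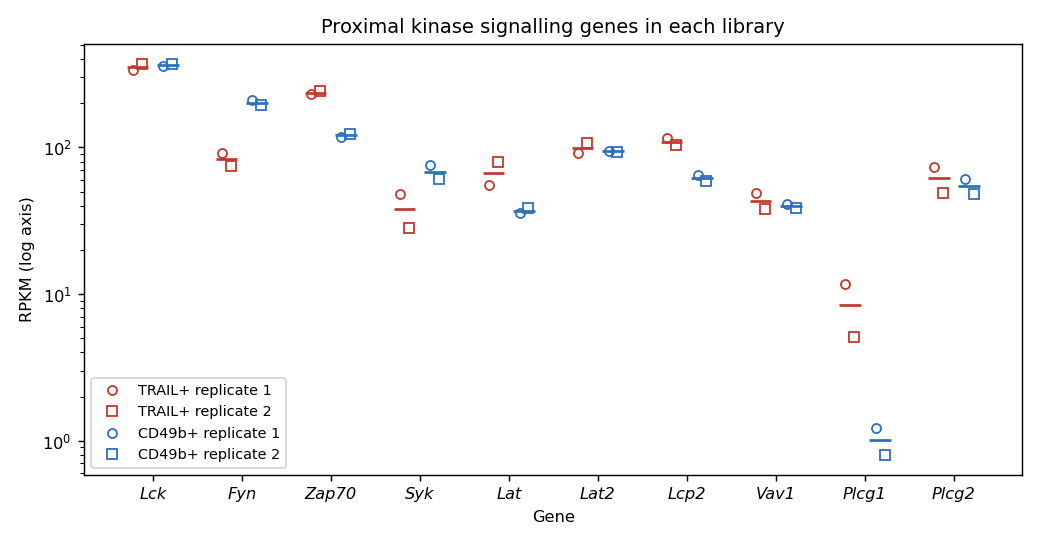
RPKM (log axis) of the 10 genes in each library, with circles for replicate 1, squares for replicate 2 and bars for group means. Plcg1, Zap70, Lcp2 and Lat lie higher in both TRAIL+ libraries, and Fyn and Syk lower; the other genes overlap.

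Lck phosphorylates ITAMs in T cells and is also expressed in NK cells. It was the most abundant of the 10 genes in both subsets, at 335 and 373 RPKM in TRAIL+ libraries and 361 and 373 RPKM in CD49b+ libraries. The groups overlapped, and the log2 fold change was -0.05 ± 0.18 (SE, limma adjusted p = 0.927), and its 95% interval ran from -0.50 to 0.39. Fyn, the other Src family kinase of the set, which also signals from SLAM family receptors, stood at 91.1 and 74.3 RPKM in TRAIL+ libraries and 210 and 193 RPKM in CD49b+ libraries. Both TRAIL+ libraries were below both CD49b+ libraries. Fyn fell by 1.28 ± 0.18 on the log2 scale (SE, limma adjusted p = 0.0120), and its mean was 2.44-fold lower in TRAIL+ cells. With CD49b+ replicate 1 or 2 left out the log2 fold change was -1.22 or -1.34.

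Zap70 and Syk, the tandem-SH2 kinases that bind phosphorylated ITAMs, differed in opposite directions. Zap70 stood at 232 and 241 RPKM in TRAIL+ libraries and 118 and 124 RPKM in CD49b+ libraries. The libraries of each subset were close to each other, and the groups were apart. The log2 fold change was 0.96 ± 0.16 (SE, limma adjusted p = 0.0205), and the mean was 1.95-fold higher in TRAIL+ cells. Without CD49b+ replicate 1 or 2 the change was 0.93 or 0.99. Syk stood at 48.1 and 28.3 RPKM in TRAIL+ libraries and 75.4 and 60.6 RPKM in CD49b+ libraries. Its groups did not overlap, but the TRAIL+ libraries were far apart, and the log2 fold change of -0.86 ± 0.28 (SE, 95% interval -1.57 to -0.14 before adjustment) did not pass the test (limma adjusted p = 0.167). Without TRAIL+ replicate 1 the log2 fold change was -1.23, and without TRAIL+ replicate 2 it was -0.48. Syk passed after a correction for gene length (-0.83, limma adjusted p = 0.0409).

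The scaffolds were Lat, its relative Lat2 (also called NTAL or LAB) and Lcp2, which encodes SLP-76. Lcp2 stood at 115 and 103 RPKM in TRAIL+ libraries and 64.9 and 58.7 RPKM in CD49b+ libraries, without overlap. The log2 fold change was 0.81 ± 0.16 (SE, limma adjusted p = 0.0391), a mean 1.77-fold higher in TRAIL+ cells. It did not pass with no filter on low values (0.81, limma adjusted p = 0.0503). With CD49b+ replicate 1 or 2 dropped the change was 0.88 or 0.74. Lat, the membrane scaffold that gathers SLP-76 and phospholipase C gamma in T cells and NK cells, stood at 55.2 and 79.1 RPKM in TRAIL+ libraries and 35.6 and 38.6 RPKM in CD49b+ libraries. Both TRAIL+ values were above both CD49b+ values, but the log2 fold change of 0.82 ± 0.22 (SE, 95% interval 0.28 to 1.36 before adjustment) did not pass the test (limma adjusted p = 0.0911). Lat passed after the length correction (0.72, limma adjusted p = 0.0223). Its change was 1.07 without TRAIL+ replicate 1 and 0.56 without TRAIL+ replicate 2. Lat2, a scaffold of B cells, mast cells and NK cells, stood at 91.1 and 107 RPKM in TRAIL+ libraries and 95.1 and 93.6 RPKM in CD49b+ libraries. The groups overlapped, with a log2 fold change of 0.06 ± 0.16 and a 95% interval of -0.35 to 0.47 (limma adjusted p = 0.905).

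Vav1 activates Rac in response to receptor phosphorylation. It stood at 48.8 and 38.0 RPKM in TRAIL+ libraries and 41.3 and 38.3 RPKM in CD49b+ libraries, which overlapped (log2 fold change 0.11 ± 0.19, 95% interval -0.35 to 0.58, limma adjusted p = 0.845). For this gene a difference of about the size seen for Zap70 lies outside the interval.

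The phospholipases divided. Plcg1, the form that T cells mainly use, stood at 11.7 and 5.08 RPKM in TRAIL+ libraries and 1.22 and 0.797 RPKM in CD49b+ libraries. It was low next to the other genes, at 213 and 86 reads in TRAIL+ libraries and 23 and 14 reads in CD49b+ libraries. Every TRAIL+ value exceeded every CD49b+ value, although the TRAIL+ libraries themselves differed by more than those of any other of the 10 genes on the log2 scale. The log2 fold change was 2.14 ± 0.39 (SE, limma adjusted p = 0.0299). The mean was 8.34-fold higher in TRAIL+ cells, 5.05-fold without TRAIL+ replicate 1, and reads relative to library totals gave a ratio of 8.40 (exact 95% interval of the counts 5.96 to 12.2). Plcg1 did not pass with no filter on low values (2.14, limma adjusted p = 0.0699). Its change was 1.99 with CD49b+ replicate 2 dropped. Plcg2, which B cells and NK cells mainly use, stood at 73.9 and 49.2 RPKM in TRAIL+ libraries and 60.5 and 48.4 RPKM in CD49b+ libraries. These overlapped, with a log2 fold change of 0.15 ± 0.25 and a 95% interval of -0.47 to 0.77 (limma adjusted p = 0.842).

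**Figure D2:**
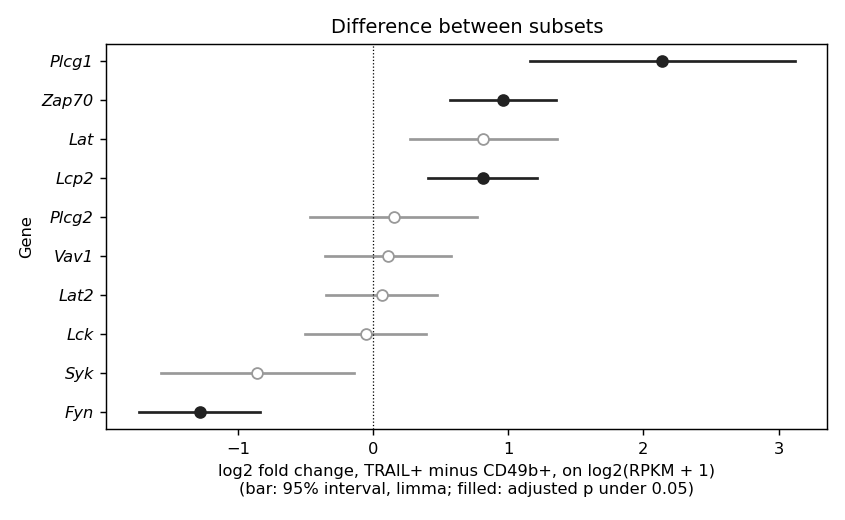
Log2 fold change, TRAIL+ minus CD49b+, of the 10 genes on the log2(RPKM + 1) scale, with 95% intervals from limma before adjustment over genes and filled points for genes past the adjusted threshold. Plcg1 (2.14), Zap70 (0.96) and Lcp2 (0.81) are filled on the right and Fyn (-1.28) on the left.

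RPKM is scaled to length, so levels were compared between genes. Replicates still differed by gene length, as given below, which limits comparisons of genes of unlike length. In TRAIL+ cells the order of mean level was Lck, Zap70, Lcp2, Lat2, Fyn, Lat, Plcg2, Vav1, Syk and Plcg1, and in CD49b+ cells it was Lck, Fyn, Zap70, Lat2, Syk, Lcp2, Plcg2, Vav1, Lat and Plcg1. Lck led and Plcg1 was last in both. In TRAIL+ cells the neighbours from Lcp2 to Plcg2 overlapped pair by pair, as did Vav1 and Syk. In CD49b+ cells Syk overlapped with Lcp2, Lcp2 with Plcg2, and Vav1 with Lat, and the other neighbours were apart.

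The balance within related genes was then taken inside each library, where it does not depend on scaling between libraries. It can still depend on gene length where the genes of a pair differ in length. For each Zap70 transcript per length there was 0.207 and 0.117 of Syk in TRAIL+ libraries and 0.637 and 0.491 in CD49b+ libraries. The ratio of Fyn to Lck was 0.272 and 0.199 in TRAIL+ libraries and 0.583 and 0.518 in CD49b+ libraries. For Lat2 to Lat it was 1.65 and 1.35 in TRAIL+ libraries and 2.67 and 2.43 in CD49b+ libraries. In all of these the TRAIL+ libraries lay below the CD49b+ libraries, so that Zap70, Lck and Lat made up a larger share of their pair in TRAIL+ cells than in CD49b+ cells. Plcg2 exceeded Plcg1 by 6.32 and 9.68 times in TRAIL+ libraries and by 49.8 and 60.8 times in CD49b+ libraries, and was the more abundant of the pair throughout. On the log2(RPKM + 1) scale the differences of the mean log2 ratio, TRAIL+ minus CD49b+, were -1.82 for Syk over Zap70, -1.23 for Fyn over Lck, -0.75 for Lat2 over Lat and -1.99 for Plcg2 over Plcg1. Each of the 4 pairs gave a two-sided exact permutation p of 0.333, the smallest that 2 against 2 libraries allow, so this test cannot pass the threshold.

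**Figure D3:**
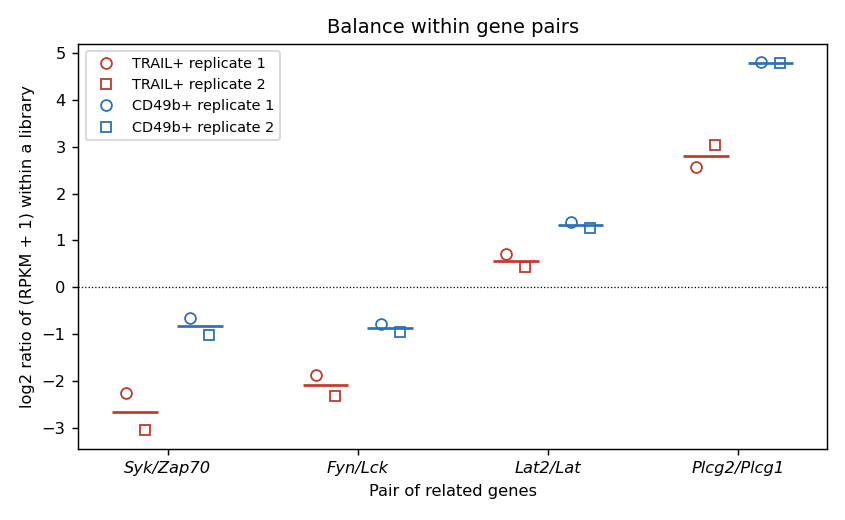
Log2 ratio of RPKM + 1 within each library for the 4 pairs of related genes, with circles for replicate 1, squares for replicate 2 and bars for group means. The TRAIL+ libraries lie below the CD49b+ libraries in each pair, by -0.75 (Lat2/Lat) to -1.99 (Plcg2/Plcg1) on average.

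The upstream sequences of the 4 genes that passed the test are shown because they are the stretch of DNA nearest to the start of the transcripts measured. Each line gives 250 bases before the start, on the gene's strand, from RefSeq on GRCm38.p6, a later build than the mm9 the authors used. The start nearest to that of the transcript in the tables was taken, at 0 to 8 bases from it. Capitals mark matches, on either strand, to AGGAAG (ETS factors), TGTGGT (RUNX factors), GGTGTGA (T-box factors) and GGGCGG (GC box), and no marked matches overlap.
Plcg1, chr2:160731060-160731309, + strand: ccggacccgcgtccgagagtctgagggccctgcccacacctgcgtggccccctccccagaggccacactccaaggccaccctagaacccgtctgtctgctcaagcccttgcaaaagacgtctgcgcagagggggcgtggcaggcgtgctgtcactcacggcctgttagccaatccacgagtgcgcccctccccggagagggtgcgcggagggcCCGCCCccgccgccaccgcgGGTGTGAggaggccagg
Zap70, chr1:36761548-36761797, + strand: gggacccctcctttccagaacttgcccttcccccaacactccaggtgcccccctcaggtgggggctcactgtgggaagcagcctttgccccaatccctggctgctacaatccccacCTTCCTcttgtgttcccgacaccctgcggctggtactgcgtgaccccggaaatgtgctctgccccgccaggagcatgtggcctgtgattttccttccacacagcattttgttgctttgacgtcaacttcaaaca
Lcp2, chr11:34046678-34046927, + strand: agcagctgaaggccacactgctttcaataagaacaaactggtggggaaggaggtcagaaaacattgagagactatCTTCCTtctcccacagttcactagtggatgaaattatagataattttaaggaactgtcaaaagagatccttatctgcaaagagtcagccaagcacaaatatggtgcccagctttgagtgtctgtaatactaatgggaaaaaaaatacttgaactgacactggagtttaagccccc
Fyn, chr10:39369549-39369798, + strand: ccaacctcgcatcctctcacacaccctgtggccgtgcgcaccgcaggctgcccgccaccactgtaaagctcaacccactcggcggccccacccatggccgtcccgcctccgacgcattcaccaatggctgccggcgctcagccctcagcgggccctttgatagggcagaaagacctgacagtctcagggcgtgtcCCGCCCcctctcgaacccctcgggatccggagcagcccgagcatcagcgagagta

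The Plcg1 window held 1 match to the T-box letters and 1 to the GC box, the Zap70 and Lcp2 windows 1 match each to the ETS letters, and the Fyn window 1 match to the GC box. Of the 32851 windows of the same length in the RefSeq table, 29.5% held the ETS letters, 14% the RUNX letters, 3.33% the T-box letters and 32.7% the GC box. The windows of Plcg1 and Fyn were rich in G and C, at 71.2% and 67.2%, those of Zap70 and Lcp2 had 58.8% and 41.2%, and the median over all windows was 52.4%. These matches describe letters and not binding.

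Values of other cells and of library quality are given next, and whether they moved with the 10 genes was not tested. Of 12 T-cell markers, some of which are also in the list of ITAM chains, 8 were tested, 7 were higher and 1 was lower in TRAIL+ cells, and their summed level was 936 and 1238 RPKM in TRAIL+ libraries and 59.1 and 67.6 RPKM in CD49b+ libraries. In TRAIL+ libraries most of that sum was Cd3g, at 812 and 1060 RPKM in TRAIL+ libraries and 6.65 and 11.1 RPKM in CD49b+ libraries, and Cd3d stood at 30.0 and 59.9 RPKM in TRAIL+ libraries and 10.4 and 10.1 RPKM in CD49b+ libraries. In CD49b+ libraries Cd28, the 1 marker lower in TRAIL+ cells, contributed most, at 7.50 and 10.2 RPKM in TRAIL+ libraries and 22.9 and 29.0 RPKM in CD49b+ libraries. The coreceptor gene Cd8a was among the higher markers, at 10.6 and 17.9 RPKM (347 reads) in TRAIL+ libraries and 0.226 and 0 RPKM (3 reads) in CD49b+ libraries. Cd4 was higher too, at 4.11 and 3.57 RPKM in TRAIL+ libraries and 0.685 and 0.0819 RPKM in CD49b+ libraries, whereas Cd5, Cd6 and Themis were below 1 RPKM in all 4 libraries. Cd8b1, another CD8 chain gene, was too low to be tested and had more reads in CD49b+ libraries. It stood at 0 and 0.186 RPKM (1 read) in TRAIL+ libraries and 1.16 and 0.179 RPKM (8 reads) in CD49b+ libraries. The part of T-cell RNA in the levels of Zap70, Lcp2, Lat and Plcg1 was not tested. Markers of Kupffer cells and monocytes summed to 117 and 30.2 RPKM in TRAIL+ libraries and 152 and 16.6 RPKM in CD49b+ libraries, with 0 of 9 tested called and Marco at 0. Lyz2 was the most abundant of them, at 81.9 and 9.21 RPKM in TRAIL+ libraries and 122 and 8.87 RPKM in CD49b+ libraries, with Cd68 second. The Kupffer cell genes C1qa, C1qc, Cd5l and Clec4f instead had higher values in both TRAIL+ libraries. C1qa was at 5.21 and 4.38 RPKM in TRAIL+ libraries and 1.31 and 0 RPKM in CD49b+ libraries (limma adjusted p = 0.0549). Cd68 was lower in both TRAIL+ libraries, at 5.09 and 3.13 RPKM, against 7.69 and 5.77 RPKM in CD49b+ libraries (limma adjusted p = 0.321). Most other markers of the list overlapped between the subsets. Syk and Plcg2, which such cells also express, were, like the marker sum, higher in replicate 1 of each subset, and the link was not tested.

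B-cell markers summed to 26.1 and 17.2 RPKM in TRAIL+ libraries and 27.6 and 13.9 RPKM in CD49b+ libraries, led by Cd79b and Cd79a, with 0 of 5 tested called. Neutrophil markers, led by S100a9 and S100a8, summed to 21.2 and 4.2 RPKM in TRAIL+ libraries and 22.1 and 0.644 RPKM in CD49b+ libraries, with 0 of 2 tested called and Elane at 0. Mast cell and basophil markers, which matter for Lat2, summed to 8.09 and 10.8 RPKM in TRAIL+ libraries and 14.1 and 13.9 RPKM in CD49b+ libraries, mostly Kit with Cpa3 second, with Fcer1a and Tpsb2 at 0 and 0 of 2 tested called. The B-cell and neutrophil sums thus differed more between replicates than between the subsets. The mast cell sum was lower in both TRAIL+ libraries. So was Kit, at 5.81 and 8.12 RPKM in TRAIL+ libraries and 11.7 and 12.5 RPKM in CD49b+ libraries. The other markers of that list were at most 1.62 RPKM (Cpa3) in any library and did not share a direction. Mcpt8, for example, had 7 reads in TRAIL+ libraries and 1 in CD49b+ libraries. Dendritic cell markers summed to 223 and 88.1 RPKM in TRAIL+ libraries and 175 and 54.6 RPKM in CD49b+ libraries, mostly Cd74 and H2-Aa, and 1 of 4 tested, the receptor gene Xcr1, was higher in TRAIL+ cells. Hepatocyte markers summed to 106 and 102 RPKM in TRAIL+ libraries and 51.0 and 23.9 RPKM in CD49b+ libraries, with 1 of 6 tested higher. That gene was Trf, which many cells express, whereas albumin (Alb) stood at 12.7 and 1.92 RPKM in TRAIL+ libraries and 14.8 and 0.865 RPKM in CD49b+ libraries. Platelet markers had Gp1bb as the 1 tested gene, at 0.118 and 0 RPKM in TRAIL+ libraries and 16.9 and 16.1 RPKM in CD49b+ libraries. The other platelet markers were at most 1.66 RPKM (Pf4) in any library. Most of these had more reads in TRAIL+ libraries, such as Ppbp with 7 reads against 0 in CD49b+ libraries. The genes of the sort gates matched the labels, with Tnfsf10 (TRAIL) at 208 and 189 RPKM in TRAIL+ libraries and 7.26 and 6.94 RPKM in CD49b+ libraries, and Itga2 (CD49b) at 5.26 and 1.55 RPKM in TRAIL+ libraries and 52.1 and 37.0 RPKM in CD49b+ libraries.

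Replicates 1 and 2 also differed by gene length in both subsets, and several of the 10 genes differed the same way. In TRAIL+ cells the median log2 difference, replicate 2 minus replicate 1, was 0.30 for the 3350 shortest genes and -0.31 for the 3348 longest, and in CD49b+ cells it was 0.13 and -0.089. The short Lat (1246 bases behind its RPKM) differed by 0.51 in TRAIL+ cells and 0.11 in CD49b+ cells. Lat2, also short (1521 bases), differed by 0.23 in TRAIL+ cells but by -0.022 in CD49b+ cells. The long Syk (5117 bases) differed by -0.75 and -0.31, Plcg1 (4469 bases) by -1.06 and -0.30, and Plcg2 (4331 bases) by -0.58 and -0.32, TRAIL+ cells first in each case. Zap70 (2193 bases) and Lck (2311 bases), in the class between, differed by 0.056 and 0.15 in TRAIL+ cells and by 0.060 and 0.045 in CD49b+ cells. Lat was thus higher and Syk lower in replicate 2 of both subsets, as were the medians of their length classes. Between the subsets the median log2 fold change was 0.063 for the shortest genes and -0.055 for the longest. These are medians of a class, and a single gene can differ by more, as Plcg1 did between TRAIL+ replicates.

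**Figure D4:**
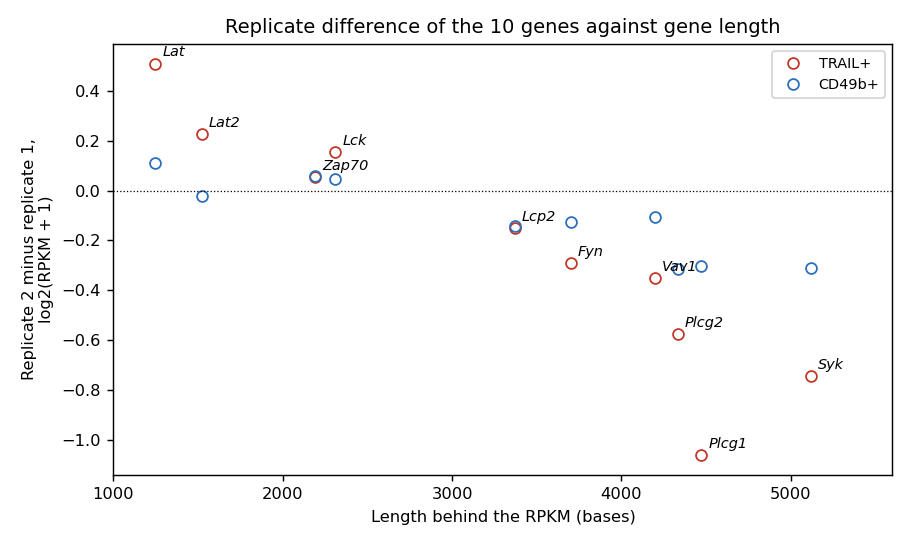
Replicate 2 minus replicate 1 on log2(RPKM + 1) for the 10 genes, against the length in bases behind the RPKM, in TRAIL+ and CD49b+ cells, with gene names beside the TRAIL+ points. The shortest gene, Lat, is at 0.51 in TRAIL+ cells and the long Plcg1 at -1.06, and in CD49b+ cells they are at 0.11 and -0.30.

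The rest of the pathway was described by 11 lists that held 134 other genes with a row, of which 118 were tested. TRAIL+ cells had higher levels of 14 (11.9%) and lower levels of 11 (9.32%), against 4.76% and 3.86% of all tested genes, and the median log2 fold change was -0.025. These lists are rich in lymphocyte genes and were drawn up with earlier results known, so the shares are a description. Each of the 25 genes called kept its direction with each library left out in turn. Many of the calls were lost with a CD49b+ library left out, where the spread comes from the TRAIL+ libraries alone.

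**Figure D5:**
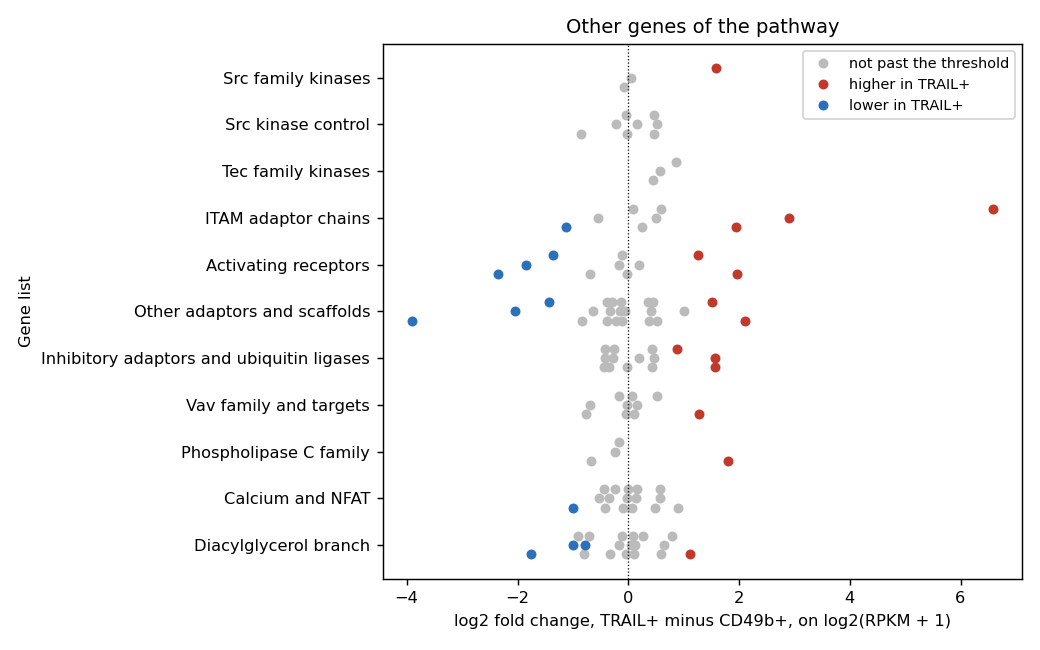
Log2 fold change, TRAIL+ minus CD49b+, of each tested gene in 11 lists of the pathway, on the log2(RPKM + 1) scale, with genes past the adjusted threshold in red (higher in TRAIL+) or blue (lower). Cd3g (6.59) lies farthest to the right and Sh2d1a (-3.91) farthest to the left, and most points lie near 0.

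Among ITAM-bearing and related adaptor chains, 3 of 9 tested rose and 1 fell in TRAIL+ cells. Cd247, the CD3 zeta chain, which NKp46 can use, stood at 20.7 and 20.2 RPKM in TRAIL+ libraries and 44.6 and 47.2 RPKM in CD49b+ libraries (log2 fold change -1.13 ± 0.15, SE, limma adjusted p = 0.0110). Fcer1g, another chain of the list, was at 1663 and 2534 RPKM in TRAIL+ libraries and 1614 and 1857 RPKM in CD49b+ libraries, with overlap (limma adjusted p = 0.788). The CD3 chains Cd3g, Cd3e and Cd3d rose, with Cd3e at 21.3 and 43.2 RPKM in TRAIL+ libraries and 2.62 and 3.87 RPKM in CD49b+ libraries. Tyrobp, which encodes DAP12 and was the most abundant of the list, stood at 1896 and 3068 RPKM in TRAIL+ libraries and 2041 and 2517 RPKM in CD49b+ libraries, with overlap (limma adjusted p = 0.942). Of 10 activating receptors tested, 2 rose and 3 fell. Cd226 (3.94-fold) and Slamf7 (2.43-fold) were higher in TRAIL+ cells, and the adhesion receptor Cd2 (3.53-fold) and Crtam (2.77-fold) were lower. Slamf6 also fell and rested on 3 reads in TRAIL+ libraries and 99 in CD49b+ libraries, 31.8-fold lower (exact 95% interval of the counts 10.6 to 157). Klrb1c (NK1.1), the most abundant, was a gate gene and did not pass the test.

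Of the other Src family kinases, Fgr rose, and the list had 1 of 3 tested higher and 0 lower. Fgr, a kinase best known from myeloid cells and NK cells, stood at 51.8 and 45.5 RPKM in TRAIL+ libraries and 14.9 and 16.1 RPKM in CD49b+ libraries (log2 fold change 1.59 ± 0.17, SE, limma adjusted p = 0.00475). Its direction was opposite to that of Fyn. Lyn stood at 30.9 and 31.7 RPKM in TRAIL+ libraries and 30.6 and 29.8 RPKM in CD49b+ libraries, and did not pass (limma adjusted p = 0.921). None of 8 tested genes that control Src kinases passed the limma test, and 2 of these, the phosphatase genes Ptprc (CD45) and Ptpn22, had an unadjusted p under 0.05, as did 20% of all tested genes. After the length correction 1 of the 8 was lower in TRAIL+ cells. Ptprc stood at 404 and 299 RPKM in TRAIL+ libraries and 685 and 576 RPKM in CD49b+ libraries (limma adjusted p = 0.103). Csk, the kinase that restrains Lck and Fyn, stood at 209 and 235 RPKM in TRAIL+ libraries and 216 and 235 RPKM in CD49b+ libraries, with overlap. The Tec family, which phosphorylates phospholipase C gamma, had 0 of 3 tested called by limma and an unadjusted p under 0.05 for all 3, and 2 of them were called higher after the length correction. Txk, the most abundant, stood at 150 and 165 RPKM in TRAIL+ libraries and 103 and 109 RPKM in CD49b+ libraries (log2 fold change 0.57 ± 0.16, limma adjusted p = 0.106).

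Other adaptors moved both ways, with 2 of 22 tested higher and 3 lower. Sh2d1a, which encodes the SLAM adaptor SAP that recruits Fyn, stood at 4.48 and 10.6 RPKM in TRAIL+ libraries and 107 and 131 RPKM in CD49b+ libraries. It was 15.8-fold lower in TRAIL+ cells (26.6-fold without TRAIL+ replicate 2), with a change of -3.91 ± 0.37 on the log2 scale (SE, limma adjusted p = 0.00356). Sh2d1a and Fyn thus fell together. Gab2, a docking protein, fell 9.12-fold (24.9-fold without TRAIL+ replicate 1 and 5.58-fold without TRAIL+ replicate 2), and Nck2, which links to actin, 3.05-fold. Sh3bp2, an adaptor that binds Syk family kinases and phospholipase C gamma, rose 2.97-fold, and Trat1, a transmembrane adaptor of T cells, 7.14-fold (20.2-fold without CD49b+ replicate 1 and 4.34-fold without CD49b+ replicate 2). The Trat1 call was lost at a pseudocount of 0.1 (limma adjusted p = 0.0649) and with no filter (0.0713). Skap1 stood at 111 and 147 RPKM in TRAIL+ libraries and 84.5 and 93.0 RPKM in CD49b+ libraries and did not pass (limma adjusted p = 0.222), and it was the most abundant by the mean of the 4 libraries though not within CD49b+ cells.

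Inhibitory adaptors and ubiquitin ligases had 3 of 14 tested higher and 0 lower. Ubash3a, a phosphatase-like suppressor of T-cell signalling, stood at 43.2 and 33.3 RPKM in TRAIL+ libraries and 11.6 and 12.6 RPKM in CD49b+ libraries (log2 fold change 1.57 ± 0.20, SE, limma adjusted p = 0.00832). Dok1, an adaptor that brings in Ras GTPase activators, rose 1.88-fold. Sit1 rose on few reads, 21 in TRAIL+ libraries and 1 in CD49b+ libraries, a ratio of 21.8 relative to library totals (exact 95% interval of the counts 3.51 to 903). Dok2, the most abundant, stood at 220 and 235 RPKM in TRAIL+ libraries and 288 and 289 RPKM in CD49b+ libraries and did not pass (limma adjusted p = 0.361).

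Downstream of the scaffolds most genes did not pass the test. Of 10 genes of the list of Vav proteins and their targets, the Vav1 relative Vav3 rose (2.71-fold), at 14.8 and 12.3 RPKM in TRAIL+ libraries and 4.81 and 5.22 RPKM in CD49b+ libraries, and 0 fell. Rac2, the most abundant by the mean of the 4 libraries though not within CD49b+ cells, stood at 677 and 823 RPKM in TRAIL+ libraries and 720 and 803 RPKM in CD49b+ libraries, with overlap. Of 4 other phospholipase C genes tested, Plcd1 rose, on 59 reads in TRAIL+ libraries and 2 in CD49b+ libraries (ratio 30.7, exact 95% counting interval 8.12 to 259), and 0 fell. Plcb2, the most abundant of these, stood at 10.1 and 5.51 RPKM in TRAIL+ libraries and 9.49 and 8.50 RPKM in CD49b+ libraries, with overlap. Among 16 calcium and NFAT genes, Orai2, a calcium channel subunit, fell (2.06-fold) and 0 rose. Ppp3r1, a calcineurin subunit and the most abundant of them, stood at 95.6 and 111 RPKM in TRAIL+ libraries and 101 and 110 RPKM in CD49b+ libraries. Orai2 had 2 rows, and the more abundant one is given. After the length correction 2 of the 16 were higher and 2 lower.

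The diacylglycerol branch had 1 of 19 tested genes higher and 3 lower in TRAIL+ cells, and 4 higher and 5 lower after the length correction. Rasgrp2, an activator of Rap1, stood at 12.7 and 14.6 RPKM in TRAIL+ libraries and 54.0 and 43.0 RPKM in CD49b+ libraries (log2 fold change -1.75 ± 0.19, SE, limma adjusted p = 0.00533). Prkcd also fell (2.07-fold), and the protein kinase D gene Prkd2 rose (2.24-fold). The Prkcd call was lost with no filter on low values (limma adjusted p = 0.0608), as was that of Cd3d (0.0557). Prkch, the most abundant, stood at 133 and 107 RPKM in TRAIL+ libraries and 118 and 103 RPKM in CD49b+ libraries, with overlap.

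The genes nearest in pattern to the members with the largest changes were found by Euclidean distance of log2(RPKM + 1) over the 4 libraries. For Plcg1 they were Lrp5 at a distance of 0.50, Abca3 at 0.63 and Tnfrsf21 at 0.64, and each rose in TRAIL+ cells. For Fyn they were Kcnab2 at 0.23, Atp1b1 at 0.34 and Selenop at 0.45, and each fell. Lrp5 stood at 10.8 and 4.88 RPKM in TRAIL+ libraries and 0.682 and 0.489 RPKM in CD49b+ libraries, and Kcnab2 at 82.3 and 79.5 RPKM in TRAIL+ libraries and 227 and 207 RPKM in CD49b+ libraries.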

How the data were processed

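The deposited files hold 1 RPKM value per gene (reads per kilobase of gene, scaled to the library total), per the file headers. Per the submitters' processing notes the aligner was TopHat 1.4.1 and the build mm9. No source used here gives the counting tool, annotation, filters or strand setting, so overlapping and antisense genes may share reads. The members and lists were chosen with earlier results of these data known. Gene names came from RefSeq accessions (20657 rows), symbols (194) or synonyms (65), and 109 rows kept the file's name. RPKM steps gave whole reads for 100% of the 13681 rows above 0, within a relative tolerance of 1e-08. A row with reads in only 1 library passes that step by construction. Lengths were set nearest to the annotated ones, and 81.1% of 10859 compared were within 10% of them. Voom on the recovered reads called 488 genes higher and 403 lower. The library totals behind the RPKM were 3786497 to 4232967 reads. The recovered reads summed over rows were more in each library, at 4115280 to 4604888. Count intervals cover counting error only. The 10047 genes that reached an RPKM of 1 in 2 or more libraries entered a limma fit (version 3.58.1, R 4.3.3; lmFit and eBayes with a trend) of log2(RPKM + 1), TRAIL+ minus CD49b+, with 2 residual degrees of freedom and a prior of 3.51. The pseudocount understates log2 changes at low levels, and a plain fold is a ratio of mean RPKM. The fit was also run on simulated reads without the length and replicate differences seen here. That run does not show how the fit performs on these libraries. Alternatives were other pseudocounts, filters and scaling, voom, a replicate block, each library left out and, added later, a correction for length. Named genes were all 10 members, up to 4 called genes per direction and the most abundant gene of each pathway list, 2 markers per other cell type, the gate genes and 3 nearest genes for each of 2 members. Ncr1, Lyn, Csk, Ptpn22, Fcer1g, Cd28, Cd8a, Cd8b1, Cd4, C1qa, C1qc, Cd5l, Clec4f, Cd5, Cd6, Themis, Marco, Elane, Fcer1a, Tpsb2, Mcpt8, Ppbp and Xcr1 were named after their values were seen. Listed genes without a row, such as Klra8 and Cd244, were not analysed here, and 1 called gene of the pathway lists is not reported here by name.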

Additional observations from a re-analysis of the deposited data

How the results depend on the processing

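With 1 library left out, genes higher in TRAIL+ cells ranged from 245 to 777 and lower from 198 to 763, the 10 members from 0 to 4 higher and 0 to 2 lower, and other pathway genes from 7 to 20 higher and 4 to 22 lower. Log2 fold changes then ranged from -1.43 to -1.14 for Fyn, 0.93 to 0.99 for Zap70, 0.74 to 0.89 for Lcp2, 1.61 to 2.67 for Plcg1, 0.56 to 1.07 for Lat, -1.23 to -0.48 for Syk and -0.14 to 0.44 for Plcg2, which reversed (-0.14) without TRAIL+ replicate 1. Lck (-0.13 to 0.023), Lat2 (-0.050 to 0.18) and Vav1 (-0.064 to 0.29) also took both signs, and none of them passed the test. Fewer libraries leave fewer degrees of freedom, and a subset with 1 library is assumed to vary like the other.

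With no filter on low values 1 member was called higher, and Lcp2 (0.81, adjusted p = 0.0503) and Plcg1 (2.14, adjusted p = 0.0699) missed the threshold over the 13681 genes then tested. The length correction, chosen after seeing the data, gave 683 genes higher and 586 lower. Of the members, 4 were higher and 2 (Fyn and Syk) lower, with Syk (-0.83) and Lat (0.72) past the threshold. Of other pathway genes, 22 were higher and 16 lower. At a pseudocount of 0.1 the Plcg2/Plcg1 log2 ratio differed by -2.69 between the subsets, against -1.99 at a pseudocount of 1. Plcg1 stood at 1.22 and 0.797 RPKM in CD49b+ libraries, a level at which a pseudocount of 1 understates log2 changes. With the replicate number as a block, 1049 genes were higher and 833 lower, and 4 members were higher and 2 (Fyn and Syk) lower. Then 29 other pathway genes were higher and 19 lower (Src control 3 and 1, Tec family 2 and 0, calcium and NFAT 3 and 2, diacylglycerol branch 4 and 6). Syk (-0.86, limma adjusted p = 0.00433) and Lat (0.82, limma adjusted p = 0.00507) passed. The labels do not say that numbers pair libraries; deviations of same-numbered libraries correlated at 0.563 over genes. Median scaling, the RPKM minimum of 5 and voom on the recovered reads kept all 10 members on their side of the threshold.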
